A study of Homo sapiens with 28 samples.

Results

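MV4-11 and MOLM-13 are lines of human acute myeloid leukemia (AML) that carry a rearranged MLL gene (MLL-r), and the comparison described here asks how far their responses to Pinometostat differed. All 8 arrays of these lines were used, chosen by line name from the 28 arrays of 7 lines. Each line gave 2 arrays of cells kept for 8 days in 1 µM Pinometostat and 2 arrays of cells kept for 8 days in vehicle (DMSO 0.01%), called treated and control below. The quantity of interest is a difference of differences: treated minus control in MV4-11, minus treated minus control in MOLM-13, on the log2 scale, so that a positive value means that the MV4-11 response lay above that of MOLM-13. Each line stands for a single source of cells. MV4-11 was grown in IMDM and MOLM-13 in RPMI-1640 medium, so line and medium cannot be told apart. The labels do not say if the 2 replicates of a group came from separate cultures, and p-values then measure only the spread between these arrays, which may be technical.

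Pinometostat blocks DOT1L, the enzyme that methylates lysine 79 of histone H3, a mark found over the bodies of transcribed genes. Fusion proteins made by MLL rearrangements bring DOT1L to genes such as MEIS1, which keep myeloid progenitors in an immature, dividing state. Loss of the mark lowers such genes and, in AML cells, goes with the appearance of monocyte and macrophage features. MV4-11 carries an MLL-AF4 fusion and MOLM-13 an MLL-AF9 fusion, and both lines are known for an activated FLT3 receptor.

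RNA was hybridized to Clariom S arrays, and the values are the deposited log2 signals normalized by RMA. In total, 17687 named genes were tested with limma, first without a block and then with the replicate number as one. The number paired the arrays: deviations from the group mean of same-numbered arrays correlated across genes at 0.53 to 0.62 in all pairs of groups, so values with the block are given beside those without it. The untreated lines were not near-identical. Without the block, 459 genes (2.6% of those tested) differed between control MV4-11 and control MOLM-13 at a Benjamini-Hochberg adjusted p under 0.05. KIT, the stem cell factor receptor, read 8.1 and 7.77 in control MV4-11 and 3.59 and 3.52 in control MOLM-13. The MOLM-13 responses of the 2 replicate numbers were less alike than those of MV4-11: across genes the correlation was 0.27 in MOLM-13 and 0.59 in MV4-11. Markers of other cell types were counted as called at an unadjusted limma p under 0.05 and a log2 difference of at least 1. Lists of B cell markers, T and NK cell markers and erythroid markers (21, 22 and 13 measured) had no member called in either line. The difference of responses was called for 1 B cell marker, with MV4-11 below, beside 1.35% of all genes. Of 20 dendritic cell markers, 4 were called higher and 1 lower in MV4-11 and 2 higher in MOLM-13. Of 13 eosinophil, basophil and mast cell markers 1 was called higher in each line. Of 13 megakaryocyte and platelet markers 1 was called higher in MV4-11. Over all genes, 2.32% were called higher and 1.41% lower in MV4-11, and 0.865% and 0.0792% in MOLM-13. The part of these cell types in the results was not tested. The mean levels of the first 3 lists were 4.18 to 4.9 in every group, with CD3D at 2.9 to 4.16 and MS4A1 at 2.61 to 3.67 in single arrays. Not all members were low. The highest mean level of a member over the control arrays was 7.05 for B cell, 8.21 for T and NK cell and 9.5 for erythroid markers.

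MV4-11 responded with more genes than MOLM-13. A gene is named "called" here when its unadjusted limma p was under 0.05 and its log2 difference at least 1, and "rose" or "fell" is kept for an adjusted p under 0.05. In MV4-11, 411 genes (2.32%) were called higher and 249 (1.41%) lower after treatment. In MOLM-13, 153 genes (0.865%) were called higher and 14 (0.0792%) lower. By adjusted p, 125 genes rose and 25 fell in MV4-11, whereas 23 rose and 0 fell in MOLM-13, where 14 genes were called lower at unadjusted p. With the replicate block these counts were 539 and 481 in MV4-11 and 72 and 0 in MOLM-13. The standard deviation of the response over genes was 0.47 in MV4-11 and 0.34 in MOLM-13. These counts changed when single arrays were left out. Those fits carried no block, so the shift shared by same-numbered arrays enters the response of the line that lost an array. That shift and the weight of the array cannot be told apart. Without MOLM-13 treated replicate 1, 324 genes were called higher and 578 lower in MOLM-13, more in all than the 421 and 267 in MV4-11 in the same fit. Without MOLM-13 treated replicate 2 the counts were 230 and 40, and without control replicate 1 they were 204 and 61. At an adjusted p under 0.05, 5 to 59 genes passed in MV4-11 when any 1 of its arrays was left out, and 5 or 6 passed in MOLM-13 without control replicate 1, control replicate 2 or treated replicate 1.

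The difference itself was called for 532 genes, 293 with the MV4-11 response above that of MOLM-13 (1.66%) and 239 with it below (1.35%). Without the block, 1 of them, IGF1, passed an adjusted p of 0.05. Without MOLM-13 treated replicate 1, 1154 genes were called and 4 passed by adjusted p, and IGF1 lost its adjusted call without any 1 of the 7 other arrays (difference 3.39 to 3.61, adjusted p up to 0.394). With the block, 85 genes passed, 56 above (0.317%) and 29 below (0.164%). All 85 were among the 532, and their differences measured from 1.53 to 4.34 log2 in size. With the block set within each line, 67 of the 85 passed. The 56 genes above had all been called higher in MV4-11 and none had been called lower in MOLM-13. Of the 29 below, 17 had been called lower in MV4-11 and 13 higher in MOLM-13, 2 of them both. The median standard error of a difference was 0.44 log2 without the block and 0.3 with it. The smallest difference that passed with the block was 1.53 log2 in size, and without the block only that of IGF1, at 3.5, passed. With 2 arrays per group, smaller differences may have gone undetected.

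**Figure D1:**
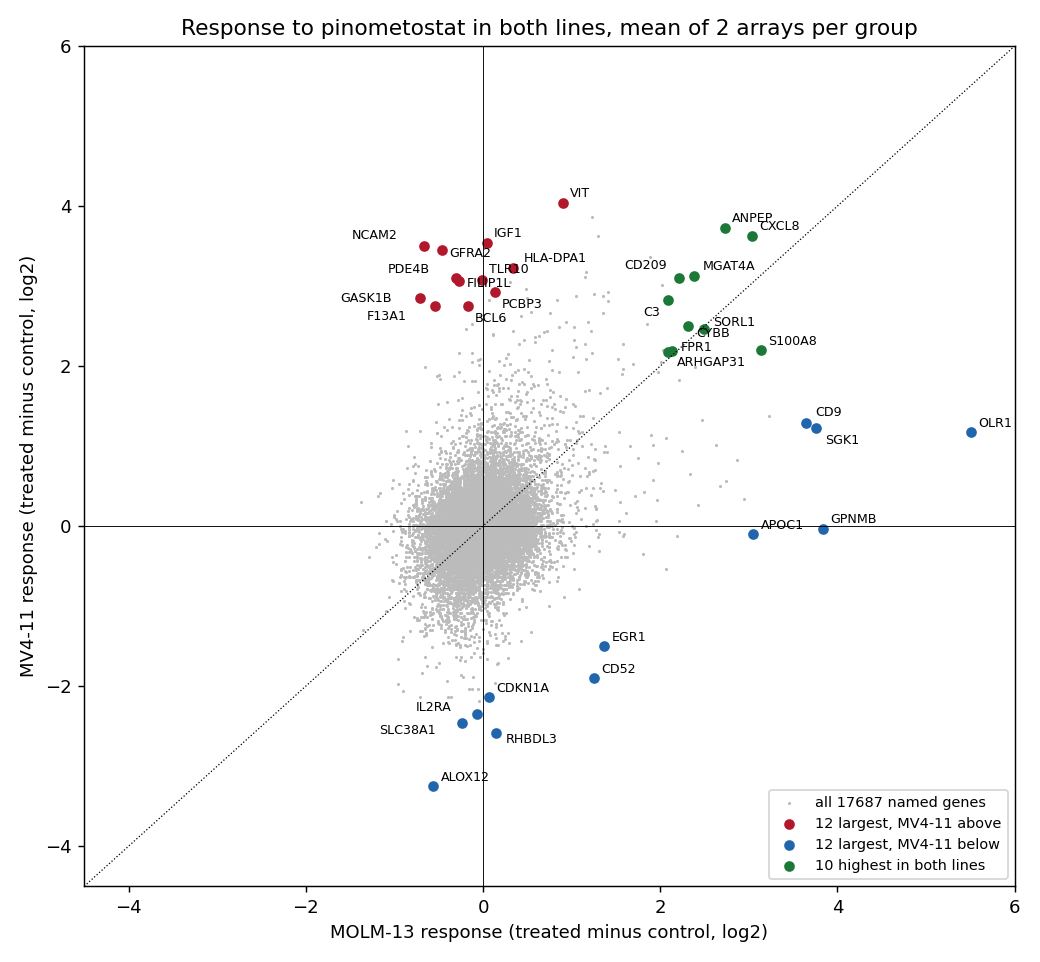
Treated minus control in MV4-11 (vertical axis, log2) against the same in MOLM-13 (horizontal axis, log2) for 17687 named genes, each the difference of means of 2 arrays, with the dotted line marking equal responses. The 12 genes with the largest positive differences (red) lie near 0 on the MOLM-13 axis, the 12 with the largest negative differences among those passing with the block (blue) lie along the right and lower arms, and the 10 highest shared genes (green) lie near the dotted line.

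All 12 genes with the largest positive difference rose in MV4-11, by 2.75 to 4.04 log2, and were not called in MOLM-13. IGF1, insulin-like growth factor 1, had log2 values of 7.62 and 7.39 in control and 11.02 and 11.07 in treated MV4-11 arrays, and 6.16 and 6.14 in control and 6.14 and 6.24 in treated MOLM-13 arrays. The treated MV4-11 arrays stood apart from all 6 others, and the MOLM-13 arrays lay within 0.1 of each other. IGF1 rose by 3.54 in MV4-11, an 11.6-fold change, and changed by 0.04 in MOLM-13, a difference of 3.5 ± 0.34 (SE, n = 2 per group, limma adjusted p = 0.0428, with the block 0.00581). GFRA2, a co-receptor for the GDNF family ligand neurturin, read 3.4 and 4.47 in control and 7.3 and 7.48 in treated MV4-11 arrays, and 4.36 and 4.98 in control and 3.87 and 4.54 in treated MOLM-13 arrays. Its difference was 3.92 ± 0.57 (adjusted p = 0.104, with the block 0.00793), and the treated MV4-11 arrays were the highest of the 8. PDE4B, a phosphodiesterase that degrades cyclic AMP, read 3.11 and 3.41 in control and 6.76 and 5.96 in treated MV4-11 arrays, and 3.11 and 3.57 in control and 3.33 and 2.75 in treated MOLM-13 arrays. Both treated MV4-11 arrays lay above every other array, and the difference was 3.4 ± 0.5 (adjusted p = 0.104, with the block 0.0207). TLR10, a member of the Toll-like receptor family, read 2.56 and 2.94 in control and 5.88 and 5.76 in treated MV4-11 arrays, and 2.87 and 2.92 in control and 2.63 and 3.16 in treated MOLM-13 arrays. The 6 other arrays stayed between 2.56 and 3.16, and the difference was 3.08 ± 0.4 (adjusted p = 0.1, with the block 0.0111).

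F13A1 and GASK1B had the same shape. F13A1, the A subunit of coagulation factor XIII, which monocytes and macrophages make, read 5.3 and 4.72 in control and 8.23 and 7.29 in treated MV4-11 arrays, and 3.93 and 4.15 in control and 3.25 and 3.75 in treated MOLM-13 arrays. It rose by 2.75 in MV4-11 and changed by -0.54 in MOLM-13 (difference 3.29 ± 0.52, adjusted p with the block 0.0277). GASK1B, a Golgi-associated kinase-like protein, read 4.26 and 4 in control and 7.51 and 6.45 in treated MV4-11 arrays, and 3.64 and 3.1 in control and 2.4 and 2.9 in treated MOLM-13 arrays. In GASK1B treated MV4-11 was the only group above 5, and the difference was 3.56 ± 0.54 (adjusted p with the block 0.0207). PCBP3, an RNA-binding protein of the poly(rC) family, read 4.89 and 5.52 in control and 8.01 and 8.26 in treated MV4-11 arrays, and 3.73 and 3.51 in control and 3.43 and 4.07 in treated MOLM-13 arrays. Its groups ran in the order treated MV4-11, control MV4-11 and then both MOLM-13 groups, which overlapped, and the difference was 2.8 ± 0.46 (adjusted p with the block 0.0192).

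In 4 of the 12 genes, the MV4-11 response ended near the level that MOLM-13 held without treatment. NCAM2, a neural cell adhesion molecule, read 3.85 and 3.74 in control and 7.56 and 7.04 in treated MV4-11 arrays, and 7.08 and 6.79 in control and 7.03 and 5.49 in treated MOLM-13 arrays. Control MV4-11 lay well below control MOLM-13 (-3.14), and the treated MV4-11 arrays came within 1 log2 of control MOLM-13. VIT, the extracellular matrix protein vitrin, read 3.25 and 3.12 in control and 7.69 and 6.77 in treated MV4-11 arrays, and 7.03 and 6.18 in control and 8.23 and 6.77 in treated MOLM-13 arrays. It rose by 4.04 in MV4-11, with a MOLM-13 change of 0.9 that did not pass (adjusted p = 1), and a difference of 3.14 ± 0.72 (adjusted p with the block 0.0207). FILIP1L, an inhibitor of cell migration, read 4 and 3.94 in control and 7.27 and 6.8 in treated MV4-11 arrays, and 6.73 and 6.68 in control and 7.13 and 5.74 in treated MOLM-13 arrays. BCL6, a transcriptional repressor of germinal centre B cells and macrophages, read 5.35 and 5.07 in control and 8.21 and 7.72 in treated MV4-11 arrays, and 8.1 and 7.56 in control and 8.2 and 7.12 in treated MOLM-13 arrays. In both, control MV4-11 was the single low group, by -2.73 and -2.62 against control MOLM-13, and treated MV4-11 overlapped the MOLM-13 arrays. Their differences were 3.33 ± 0.59 and 2.93 ± 0.55 (adjusted p with the block 0.0207 and 0.0126). CD84, a lymphocyte activation family receptor that the study examined, had the same form, at 5.76 and 5.46 in control and 8 and 7.4 in treated MV4-11 arrays, and 7.77 and 7.3 in control and 7.84 and 7.17 in treated MOLM-13 arrays. Its difference was 2.12 ± 0.48 (adjusted p with the block 0.0192).

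**Figure D2:**
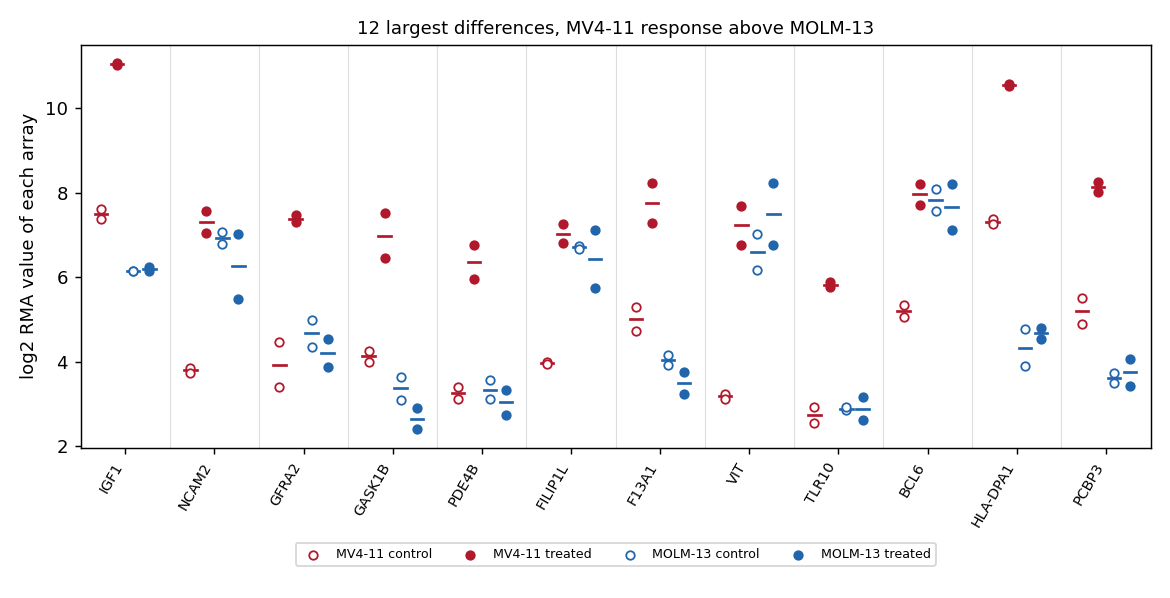
Log2 RMA value of each array (points) with the group mean (bar, n = 2) for the 12 genes with the largest positive difference, in control (open) and treated (filled) MV4-11 (red) and MOLM-13 (blue). Treated MV4-11 lies apart from control MV4-11 in every gene shown, and for NCAM2, FILIP1L, VIT and BCL6 control MV4-11 lies below both MOLM-13 groups.

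Of the 26 gene lists examined, the MHC class II genes had the largest median difference between the lines. These molecules present peptides to helper T cells, and their transcription is switched on by CIITA, the class II transactivator. Of 12 measured members, 9 were called higher in MV4-11 and 1 in MOLM-13, and 8 had a called difference, all with MV4-11 above. Over all genes, 2.32% were called higher in MV4-11 and 1.66% had a called difference in this direction. By adjusted p, 8 members rose in MV4-11 and 0 in MOLM-13, where 1 was called higher at unadjusted p, and with the block 6 differences passed. The median response of the 12 was 2.06 in MV4-11 and 0.32 in MOLM-13, beside -0.02 and -0.03 over all genes, and the median difference was 1.58 and 1.64 in the 2 replicate numbers.

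The chains of the DP and DQ molecules led the group. HLA-DPA1 and HLA-DPB1 encode the chains of the DP molecule. HLA-DPA1 read 7.38 and 7.25 in control and 10.52 and 10.58 in treated MV4-11 arrays, and 4.77 and 3.9 in control and 4.79 and 4.55 in treated MOLM-13 arrays. HLA-DPB1 read 7.06 and 6.8 in control and 10.04 and 9.93 in treated MV4-11 arrays, and 4.48 and 4.32 in control and 4.36 and 5.04 in treated MOLM-13 arrays. In both, control MV4-11 already lay above all MOLM-13 arrays and treated MV4-11 lay higher still, with differences of 2.9 ± 0.45 and 2.75 ± 0.41 (adjusted p = 0.104 for both, with the block 0.0192 and 0.0207). The DQ chains started level. HLA-DQA1 read 4.31 and 4.44 in control and 7.14 and 6.67 in treated MV4-11 arrays, and 4.52 and 4.45 in control and 4.16 and 4.56 in treated MOLM-13 arrays, and HLA-DQB1 read 5.02 and 5.06 in control and 7.76 and 7.56 in treated MV4-11 arrays, and 5.53 and 4.76 in control and 5.79 and 5.36 in treated MOLM-13 arrays. Only treated MV4-11 stood apart in these genes, and the differences were 2.66 ± 0.39 and 2.19 ± 0.44 (adjusted p with the block 0.0192 and 0.0286).

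The remaining members were named here after their values were seen. CIITA read 7.76 and 8.05 in control and 10.33 and 10.36 in treated MV4-11 arrays, and 6.06 and 5.92 in control and 6.58 and 6.84 in treated MOLM-13 arrays, so that treated MV4-11 lay highest and the MOLM-13 groups did not overlap either. It rose by 2.44 in MV4-11, while its change of 0.72 in MOLM-13 did not pass (adjusted p = 1), and the difference was 1.72 ± 0.36 (adjusted p with the block 0.039, and 0.0545 with the block within each line). HLA-DRB1, the DR beta chain, rose by 2.01 in MV4-11 with a MOLM-13 change of -0.04. HLA-DRA, the DR alpha chain, was the member called higher in both lines, by 2.11 and 1.01, with a difference of 1.1 ± 0.44 that did not pass with the block (adjusted p = 0.194). HLA-DMA, part of the peptide loading factor, rose by 1.92 in MV4-11. CD74, the invariant chain, was called higher in MV4-11 by 1.04 (adjusted p = 0.388). HLA-DOA, HLA-DOB and HLA-DRB5 had responses between -0.12 and 0.43 in both lines. HLA genes vary between people and resemble one another, and how the array probes fit the alleles of each line was not tested.

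**Figure D3:**
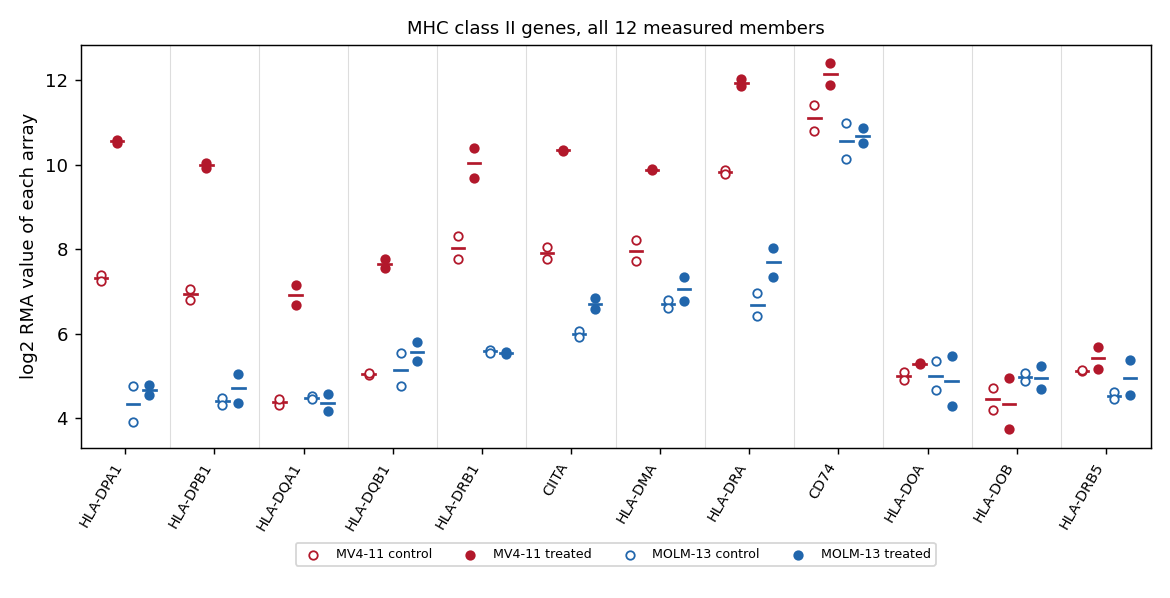
Log2 RMA value of each array (points) and group mean (bar, n = 2) for all 12 measured MHC class II genes, ordered by the difference of responses, in control (open) and treated (filled) MV4-11 (red) and MOLM-13 (blue). Treated MV4-11 lies above the 6 other arrays in the first 9 genes, and the groups overlap in HLA-DOB.

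Class II promoters share short sequence boxes, of which the Y box carries the letters CTGATTGG. These letters were searched on both strands of RefSeq promoters (GRCh38.p14, 250 bases before to 50 after the start). They occurred in 4 of the 10 measured members with a promoter (HLA-DMA, HLA-DQB1, HLA-DRB1 and HLA-DRB5), and in 3.97% of 35116 promoters. The 150 bases before the start are shown for the pair whose difference passed with the block, with the box in capitals. HLA-DQB1 lies at chr6:32666658-32666807 on the minus strand and HLA-DRB1 at chr6:32589849-32589998 on the minus strand.
HLA-DQB1: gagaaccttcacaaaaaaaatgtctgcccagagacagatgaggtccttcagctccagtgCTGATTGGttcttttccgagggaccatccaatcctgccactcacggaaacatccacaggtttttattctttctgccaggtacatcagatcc
HLA-DRB1: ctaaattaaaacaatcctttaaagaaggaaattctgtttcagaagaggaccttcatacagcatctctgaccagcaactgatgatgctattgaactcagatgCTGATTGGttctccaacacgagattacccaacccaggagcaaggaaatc
The first base of the box lies at -91 in HLA-DQB1 and at -49 in HLA-DRB1, counted from the start site. HLA-DRB5 holds the box too, and its responses of 0.3 and 0.43 were not called in either line.

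Among genes passing with the block, treatment raised MOLM-13 more than MV4-11 in 5 of the 12 with the largest negative difference. OLR1, the receptor for oxidized low density lipoprotein, read 3.63 and 4.04 in control and 5.23 and 4.78 in treated MV4-11 arrays, and 3.98 and 3.83 in control and 9.85 and 8.98 in treated MOLM-13 arrays. The treated MOLM-13 arrays stood apart from all others by more than 3 log2, and the smaller MV4-11 change of 1.17 was called but not past adjustment (adjusted p = 0.24). OLR1 rose by 5.51 in MOLM-13, a 45.6-fold change, and its difference of -4.34 ± 0.48 was the largest in size among the 85 genes (adjusted p = 0.0695, with the block 0.0111). GPNMB, a glycoprotein of macrophage lysosomes, read 5.06 and 5.72 in control and 5.49 and 5.23 in treated MV4-11 arrays, and 4.8 and 5.73 in control and 9.54 and 8.68 in treated MOLM-13 arrays. APOC1, an apolipoprotein that macrophages secrete, read 6.11 and 6.45 in control and 6.45 and 5.91 in treated MV4-11 arrays, and 5.54 and 5.39 in control and 8.54 and 8.5 in treated MOLM-13 arrays. Neither gene separated treated from control MV4-11, and both rose in MOLM-13, by 3.84 and 3.05 (differences -3.87 ± 0.58 and -3.16 ± 0.39, adjusted p with the block 0.0264 and 0.0114). APOE, the neighbour of APOC1, and PLIN2, which coats lipid droplets, were named after their values were seen. Their differences were -1.87 ± 0.36 and -1.71 ± 0.44 (adjusted p with the block 0.0301 and 0.031).

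SGK1 and CD9 moved the same way in both lines but further in MOLM-13. SGK1, a kinase induced by serum and glucocorticoids, read 2.91 and 3.09 in control and 4.15 and 4.32 in treated MV4-11 arrays, and 3.19 and 2.91 in control and 7.16 and 6.45 in treated MOLM-13 arrays. CD9, a tetraspanin of the cell surface, read 4.42 and 4.46 in control and 6.07 and 5.39 in treated MV4-11 arrays, and 4.52 and 4.36 in control and 8.63 and 7.54 in treated MOLM-13 arrays. Treated arrays lay above control arrays in both lines, with SGK1 responses of 1.23 in MV4-11 (adjusted p = 0.133) and 3.76 in MOLM-13 (adjusted p = 0.00261). CD9 responses were 1.29 (adjusted p = 0.248) and 3.65 (adjusted p = 0.0163). The differences were -2.53 ± 0.42 and -2.36 ± 0.54 (adjusted p with the block 0.0257 and 0.0469). With the block within each line, CD9 did not pass (adjusted p = 0.0524).

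In 5 more of these 12 genes, MV4-11 fell and MOLM-13 was not called. ALOX12, the platelet type lipoxygenase, read 7.88 and 8.08 in control and 4.77 and 4.68 in treated MV4-11 arrays, and 7.57 and 7.46 in control and 7.11 and 6.79 in treated MOLM-13 arrays. RHBDL3, a rhomboid family protein, read 6.71 and 6.84 in control and 3.9 and 4.5 in treated MV4-11 arrays, and 4.04 and 4.39 in control and 4.24 and 4.49 in treated MOLM-13 arrays. Treated MV4-11 arrays were lower than control MV4-11 in both, by -3.25 and -2.58, and in ALOX12 they were the lowest of all 8. IL2RA, the alpha chain of the interleukin 2 receptor, read 6.16 and 5.55 in control and 3.46 and 3.55 in treated MV4-11 arrays, and 4.15 and 3.86 in control and 4.12 and 3.75 in treated MOLM-13 arrays. SLC38A1, a glutamine transporter, read 8.87 and 8.29 in control and 6.59 and 5.63 in treated MV4-11 arrays, and 9.74 and 9.31 in control and 9.82 and 8.74 in treated MOLM-13 arrays. CDKN1A, the p21 inhibitor of cyclin-dependent kinases, read 7.6 and 8.21 in control and 5.87 and 5.66 in treated MV4-11 arrays, and 8.97 and 9.06 in control and 9.1 and 9.08 in treated MOLM-13 arrays. All 5 fell in MV4-11 by adjusted p (0.002 to 0.0432), and their MOLM-13 changes of -0.56 to 0.15 were not called. Their differences ran from -2.73 in RHBDL3 to -2.21 in CDKN1A, with adjusted p of 0.0111 to 0.0286 with the block.

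CD52 and EGR1 were the 2 genes called in opposite directions, CD52 also without any 1 array. CD52, a small surface glycoprotein of lymphocytes and monocytes, read 7.5 and 7.67 in control and 6.06 and 5.3 in treated MV4-11 arrays, and 8.05 and 8.11 in control and 9.26 and 9.4 in treated MOLM-13 arrays. It fell by 1.9 in MV4-11 and was called higher by 1.25 in MOLM-13 (adjusted p = 0.554), and in each line treated and control arrays did not overlap (difference -3.16 ± 0.42, adjusted p = 0.1, with the block 0.0158). EGR1, an immediate early transcription factor downstream of MAPK signalling, read 8.03 and 9.11 in control and 6.66 and 7.49 in treated MV4-11 arrays, and 5.63 and 6.68 in control and 7.35 and 7.7 in treated MOLM-13 arrays. It was called lower by -1.5 in MV4-11 (adjusted p = 0.297) and higher by 1.37 in MOLM-13 (adjusted p = 1), with a difference of -2.87 ± 0.67 (adjusted p = 0.464, with the block 0.0132). Treated and control arrays did not overlap within either line, the control arrays of MV4-11 were the highest of the 8, and treated arrays of the lines overlapped. EGR1 was no longer called in MV4-11 without MV4-11 treated replicate 1 or control replicate 2 (-1.08 and -0.96), nor in MOLM-13 without MOLM-13 control replicate 1 or treated replicate 2 (0.84 and 1.2).

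EGR1 is a known target of serum response factor, which binds the CArG box. That box was found at -105 and -83 of the EGR1 promoter and in 1.29% of the 35116 promoters, searched on both strands. EGR1, known beforehand as a target, was the only gene of these results examined for the box, so the hit shows no enrichment. The 150 bases before the start (GRCh38.p14, chr5:138465329-138465478, plus strand, RefSeq) are shown with both boxes in capitals.
EGR1: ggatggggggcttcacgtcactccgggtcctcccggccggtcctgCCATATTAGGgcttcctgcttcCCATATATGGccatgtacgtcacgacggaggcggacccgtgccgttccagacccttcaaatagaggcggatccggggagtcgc

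**Figure D4:**
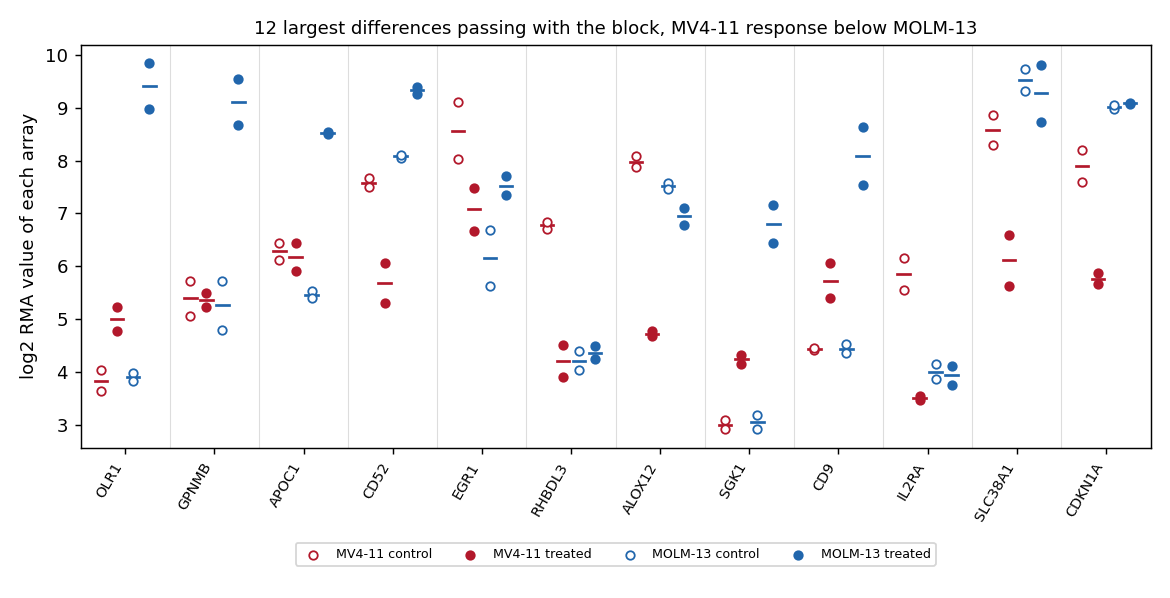
Log2 RMA value of each array (points) and group mean (bar, n = 2) for the 12 genes with the largest negative difference among those passing with the block, in control (open) and treated (filled) MV4-11 (red) and MOLM-13 (blue). OLR1, GPNMB, APOC1, SGK1 and CD9 are high in treated MOLM-13, and RHBDL3, ALOX12, IL2RA, SLC38A1 and CDKN1A are low in treated MV4-11 against control MV4-11.

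The mean response of both lines rose for 117 genes and fell for 9 by adjusted p without the block, and for 453 and 384 with it. Of the genes called higher, 72 were called in both lines, 17.5% of the 411 in MV4-11 and 47.1% of the 153 in MOLM-13. Over all genes, 0.865% were called higher in MOLM-13 and 2.32% in MV4-11. The MOLM-13 response was above 0 in 77.4% of the 411 and in 46.1% of all genes. The MV4-11 response was above 0 in 84.3% of the 153 and in 47.5% of all genes. MSMO1, a sterol methyl oxidase of cholesterol synthesis, was the single gene called lower in both, by -1.3 and -1.35, though past adjustment in neither (adjusted p = 0.421 and 1). A further 339 genes were called higher in MV4-11 alone, of which 190 had a called difference and 54 passed with the block. For 79 genes called higher in MOLM-13 alone, 37 had a called difference and 7 passed with the block. Of 246 genes called lower in MV4-11 alone, 91 had a called difference and 15 passed with the block. A call in 1 line alone went with a called difference in part of the genes, and the line calls and the difference rest on the same arrays.

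The 10 highest shared genes include a chemokine, surface receptors and enzymes of mature myeloid cells. CXCL8, the neutrophil attractant interleukin 8, read 4.9 and 5.04 in control and 8.49 and 8.71 in treated MV4-11 arrays, and 6.77 and 6.67 in control and 9.74 and 9.78 in treated MOLM-13 arrays. Treated arrays exceeded control arrays by about the same distance in both lines, 3.63 and 3.04 (adjusted p = 0.000958 and 0.00261). ANPEP, the myeloid aminopeptidase CD13, read 5.25 and 4.8 in control and 8.75 and 8.75 in treated MV4-11 arrays, and 3.97 and 5.34 in control and 7.29 and 7.47 in treated MOLM-13 arrays. SORL1, a sorting receptor, read 6.35 and 5.95 in control and 8.79 and 8.44 in treated MV4-11 arrays, and 6.06 and 5.69 in control and 8.59 and 8.13 in treated MOLM-13 arrays. In SORL1 the responses were 2.46 and 2.49 (adjusted p = 0.00662 and 0.0228) and the difference was -0.02 (95% interval -0.97 to 0.92). CD209, a lectin of dendritic cells and macrophages, was 3.1 and 2.21 higher, and complement component C3 2.83 and 2.09 higher, past adjustment in both lines. S100A8, a calcium-binding protein of monocytes and neutrophils, was called higher by 2.2 in MV4-11 (adjusted p = 0.0594) and rose by 3.14 in MOLM-13 (adjusted p = 0.0354). CYBB, the catalytic subunit of the phagocyte oxidase, rose by 2.5 in MV4-11 and was called higher by 2.31 in MOLM-13 (adjusted p = 0.116). FPR1, the formyl peptide receptor, MGAT4A, a glycosyltransferase, and ARHGAP31 were called higher in both lines by 2.09 to 3.13. None of these 10 differences passed with the block, and CD209 had the smallest unadjusted p (0.0494).

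Monocyte and macrophage genes were called higher in both lines, with differing members in front. Of 53 measured, 16 were called higher in MV4-11 and 19 in MOLM-13, 10 of them in both, beside 2.32% and 0.865% over all genes. The median responses were 0.51 and 0.55. Called differences numbered 6 with MV4-11 above and 10 below, beside 1.66% and 1.35% of all genes. Of these, 1 and 3 passed with the block, beside 0.317% and 0.164% of all genes. CLEC12A, an inhibitory lectin of myeloid cells, read 3.73 and 3.81 in control and 8.07 and 7.18 in treated MV4-11 arrays, and 4.69 and 4.51 in control and 6.51 and 5.15 in treated MOLM-13 arrays. It rose by 3.86 in MV4-11 and was called higher by 1.23 in MOLM-13, with a difference that did not pass with the block (adjusted p = 0.0587). CD14, the lipopolysaccharide co-receptor, read 4.74 and 4.83 in control and 5.83 and 4.85 in treated MV4-11 arrays, and 4.75 and 4.73 in control and 7.89 and 7.06 in treated MOLM-13 arrays. It rose by 2.74 in MOLM-13, and in MV4-11 treated replicate 1 stood apart from the 3 other arrays (difference -2.18 ± 0.54, adjusted p with the block 0.0725). FCER1G, an Fc receptor chain named after its values were seen, was high in both MV4-11 groups and was called higher in MOLM-13 alone, by 1.81. ITGAM, which encodes CD11b, was not called in either line (0.48 and 0.55). CD86, a costimulatory ligand, was called higher by 1.16 and 1.08, and CD36, a scavenger receptor, by 1.52 and 1.02.

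The lists of chemokines and cytokines and of neutrophil and granule genes had median differences near 0. Of 42 chemokine, cytokine and NF-kB genes, 3 differences were called with MV4-11 above and 2 below, and of 25 neutrophil and granule genes 2 and 2, beside 1.66% and 1.35% of all genes, with median differences of -0.03 and 0.03. CCL2, a monocyte attractant, rose by 2.66 in MV4-11 against a change of 0.76 in MOLM-13 that was not called, and IL1B was called higher in MV4-11 by 1.01 and rose by 2.63 in MOLM-13. CCL5, a T cell attractant, fell by 2.13 in MV4-11 with a MOLM-13 change of -0.39. These 3 differences passed with the block (adjusted p = 0.0264, 0.0405 and 0.0477), and that of IL1B did not with the block within each line (0.0591). The difference of CX3CR1, a chemokine receptor, also passed with the block, with MV4-11 above (limma adjusted p = 0.0469, and 0.0362 with the block within each line). It ranged from 1.36 to 2.44 log2 when 1 array was left out. CTSG, a protease of azurophil granules, rose by 1.95 in MV4-11 with a MOLM-13 change of 0.39 (adjusted p with the block 0.0405, and 0.0599 with the block within each line). MMP9, a gelatinase, and HMOX1, heme oxygenase 1, rose in MOLM-13 by 2.67 and 2.94, with MV4-11 changes of 0.5 and 0.34, and their differences did not pass with the block (adjusted p = 0.0534 and 0.0617).

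Genes of cell division had lower medians after treatment in MV4-11 than in MOLM-13. Their counts of called genes changed when single arrays were left out. Those fits carried no block, so the shift shared by same-numbered arrays enters the response of the line that lost an array. Of 46 DNA replication genes, 13 were called lower in MV4-11 and 0 in MOLM-13, where 1.41% and 0.0792% of all genes were called lower. Of 38 mitosis genes, 10 were called lower in MV4-11 and 0 in MOLM-13. By adjusted p, 0 members of either list fell in either line without the block by limma. With the block, 27 replication and 24 mitosis genes fell in MV4-11 and 0 in MOLM-13. The median response of the replication genes was -0.93 in MV4-11 and -0.28 in MOLM-13, and that of the mitosis genes was -0.87 and -0.2. The 2 replicate numbers gave median differences of -0.55 and -0.55 for replication and -0.71 and -0.65 for mitosis. The difference was called for 3 replication genes and 1 mitosis gene, beside 1.35% of all genes, and passed with the block in 0 members. Without MOLM-13 treated replicate 1, 7 replication genes and 2 mitosis genes were called lower in MOLM-13, and the MOLM-13 medians were -0.47 and -0.47. In MV4-11, 5 replication and 2 mitosis genes were called lower without treated replicate 2, 7 and 2 without control replicate 1, 25 and 21 without treated replicate 1, and 22 and 15 without control replicate 2. Without MOLM-13 treated replicate 2, the difference was called for 8 replication and 12 mitosis genes.

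GINS2, a subunit of the replicative helicase complex, read 7.99 and 7.95 in control and 6.84 and 6.46 in treated MV4-11 arrays, and 7.85 and 7.51 in control and 7.74 and 7.75 in treated MOLM-13 arrays. The 2 treated MV4-11 arrays were the lowest, and the difference was -1.39 ± 0.37 (adjusted p with the block 0.0822). CHAF1A, a chromatin assembly factor, and RRM2, a ribonucleotide reductase subunit, had differences of -1.17 ± 0.35 and -1.03 ± 0.42. Among mitosis genes, TPX2, a spindle assembly factor, read 8.95 and 8.93 in control and 7.46 and 7.81 in treated MV4-11 arrays, and 8.6 and 8.75 in control and 8.64 and 8.22 in treated MOLM-13 arrays. Its difference was -1.06 ± 0.38 (adjusted p with the block 0.228), and CCNB1, cyclin B1, had one of -1.07 ± 0.52, which was -0.62 without MV4-11 treated replicate 2.

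**Figure D5:**
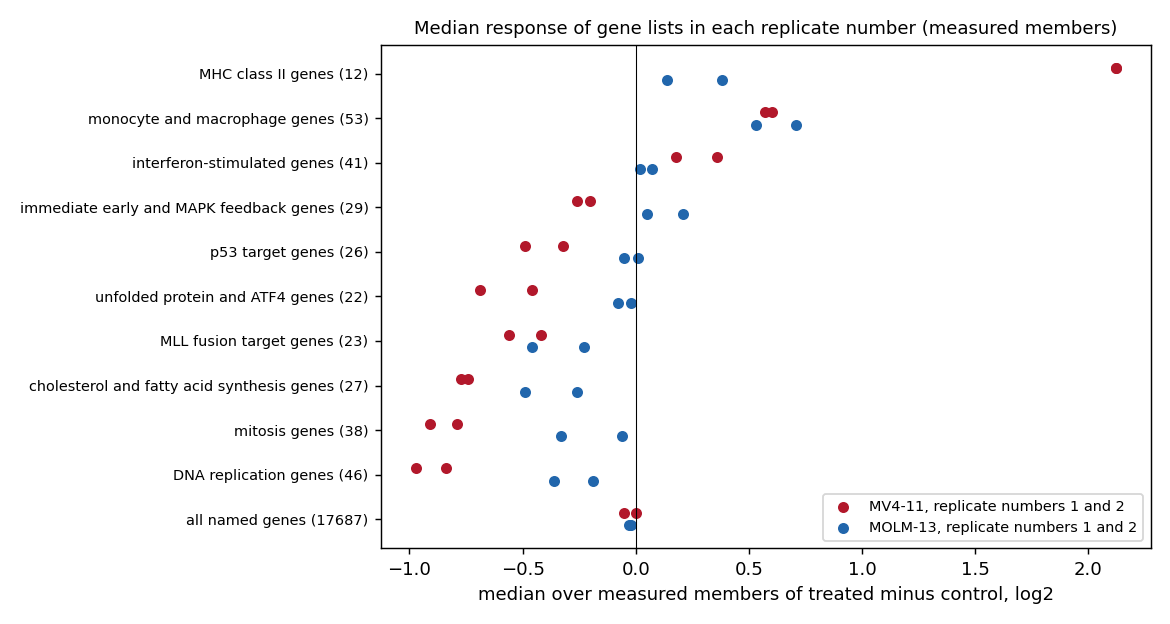
Median over the measured members (number in parentheses) of treated minus control in log2, for each replicate number of MV4-11 (red) and MOLM-13 (blue), for 10 gene lists and all named genes. The points of the lines are far apart for MHC class II genes (2.12 against 0.14 and 0.38). They are also separate for DNA replication, mitosis, cholesterol and fatty acid synthesis, p53 target, unfolded protein and ATF4, immediate early and interferon-stimulated genes. They overlap for monocyte and macrophage genes, MLL fusion target genes and all named genes.

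Of 23 measured MLL fusion target genes, listed from general knowledge, 4 were called lower in MV4-11 and 0 in MOLM-13, beside 1.41% and 0.0792% of all genes, with medians of -0.54 and -0.31 and a median difference of -0.1. In MOLM-13, 1 was called lower without treated replicate 1 or control replicate 2. MEF2C, a transcription factor of progenitors, read 9.53 and 9.59 in control and 7.69 and 7.16 in treated MV4-11 arrays, and 10.43 and 9.97 in control and 10.27 and 9.41 in treated MOLM-13 arrays. FLT3, the receptor tyrosine kinase, read 9.81 and 9.6 in control and 7.99 and 7.54 in treated MV4-11 arrays, and 9.67 and 9.56 in control and 9.31 and 9.1 in treated MOLM-13 arrays. Treated MV4-11 lay below the 6 other arrays in both genes, which fell by 2.13 and 1.94 in MV4-11, while the MOLM-13 changes of -0.36 and -0.41 were not called. The FLT3 difference of -1.53 ± 0.38 passed with the block (adjusted p = 0.0494, and 0.0642 with the block within each line) and that of MEF2C did not (-1.77 ± 0.49, adjusted p = 0.0736). MEIS1, a homeobox cofactor, was called lower in MV4-11 by -1.17 and stood at -0.75 in MOLM-13 (difference -0.41, 95% interval -1.56 to 0.73, and -0.02 without MV4-11 treated replicate 2). MYC changed by -0.34 and -0.32, with a difference of -0.02 (95% interval -0.78 to 0.75). PIM1, a kinase induced by STAT5, was called lower by -1.14 in MV4-11 against -0.11 in MOLM-13.

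Immediate early genes were called higher in MOLM-13 for 5 of 29 members and in MV4-11 for 1, with 2 called lower in MV4-11, and 0 lower without MV4-11 treated replicate 1 or control replicate 2. Over all genes, 0.865% were called higher in MOLM-13, and 2.32% higher and 1.41% lower in MV4-11. Their called differences, 5 in all, had MV4-11 below, beside 1.35% of all genes, and 1 of them (EGR1) passed with the block. IER3, an early response gene that limits apoptosis, read 6.99 and 7.22 in control and 6.93 and 7.43 in treated MV4-11 arrays, and 8.01 and 8.15 in control and 9.54 and 9.69 in treated MOLM-13 arrays. PHLDA1, a feedback gene of receptor signalling, had responses of -0.07 in MV4-11 and 1.54 in MOLM-13. The list median was -0.23 in MV4-11 and 0.1 in MOLM-13, with a median difference of -0.44.

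Further lists are set beside all genes, of which 2.32% were called higher and 1.41% lower in MV4-11, and 0.865% and 0.0792% in MOLM-13. The difference was called with MV4-11 above for 1.66% of all genes and with it below for 1.35%. The cholesterol and fatty acid synthesis list holds MUSK, a receptor kinase matched by alias in place of FADS1, which was not measured. Of its 27 measured genes, MUSK included, 8 were called lower in MV4-11 and 1 in MOLM-13. The medians were -0.73 and -0.37, with a median difference of -0.32. In MOLM-13, 5 were called lower without treated replicate 1. DHCR7, which makes cholesterol from its last precursor, was called lower by -2.06 in MV4-11 and stood at -0.9 in MOLM-13 (difference -1.16 ± 0.6). Its difference was -0.61 without MOLM-13 treated replicate 1 and -1.71 without treated replicate 2. Of 22 unfolded protein and ATF4 genes, 3 were called lower in MV4-11 and 0 in MOLM-13, 1 was called higher in each line, and 4 differences were called with MV4-11 below and 1 with it above. XBP1, a transcription factor of the unfolded protein response, read 9.74 and 9.6 in control and 7.55 and 7.71 in treated MV4-11 arrays, and 9.24 and 9.19 in control and 9.07 and 9.12 in treated MOLM-13 arrays. Treated MV4-11 lay below the 6 other arrays, and the difference of -1.92 ± 0.34 passed with the block (adjusted p = 0.0207). Of 26 p53 target genes, 2 were called lower in MV4-11 and 0 in MOLM-13, CDKN1A among them, with a median difference of -0.48 for p53 targets and -0.47 for the ATF4 list. Of 41 interferon-stimulated genes, 5 were called higher in MV4-11 and 0 in MOLM-13, where 1 was called lower, with a median difference of 0.18. Differences called with MV4-11 above numbered 3, and 7 without MOLM-13 treated replicate 1. SAMD9L, an interferon-induced growth inhibitor, was called higher by 1.37 in MV4-11 and stood at -0.19 in MOLM-13 (adjusted p of the difference with the block 0.0769).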

How the data were processed

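Total RNA of 7 AML lines was labelled with biotin and hybridized to Clariom S arrays, and the 8 arrays of MV4-11 and MOLM-13 were used here. The deposited values are log2 signals that the authors made with RMA (background correction, quantile normalization and summary per probe set) in R 3.6.1, per the labels. Quantile normalization gives all arrays the same distribution of probe values before the summary. A change common to most genes would thus largely not be seen, and log2 differences of dim probe sets understate changes. After the summary the medians of the 28 arrays ranged from 5.61 to 5.76. Over named genes the 75th percentile was 7.477 to 7.506 in the replicate 1 arrays of the 2 lines and 7.173 to 7.327 in the replicate 2 arrays. Of 27189 entries, 5741 controls were left out, and 17709 of 21448 transcript probe sets carried 1 gene symbol in the platform annotation. Probe sets were averaged for 20 genes that had more than 1, giving 17687 genes, tested with no filter on signal. The number of arrays, 2 per group, limits the precision.

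Differences were fitted with limma 3.58.1 (lmFit, eBayes, R 4.3.3) on the 4 group means, with p-values adjusted by Benjamini-Hochberg over all genes. Values without a block are given first and those with the replicate number as a block beside them, and the study's text speaks of a paired sample analysis without naming its model. Pairing was checked from deviations of same-numbered arrays. The fold change and p-value columns of the study were not used. Listed symbols missing from the annotation were matched through aliases, so MUSK stood for FADS1 in all values of the cholesterol and fatty acid synthesis list. Likewise, EGFL7 stood for NEU1 in the lysosome list and SLC25A21 for ODC1 in the list of MYC and ribosome biogenesis genes. The genes named are the 12 largest differences in each direction, filled from genes passing with the replicate block, the 10 highest shared genes, genes called in opposite directions, up to 4 members per list and genes the study names. The lines compared, the gene lists and the tests were chosen with earlier results of these data known. Alternatives were the replicate block, a block within each line, leaving out each array, another quantile normalization, median centring, 2 filters on signal, all 28 arrays in 1 fit, trended robust eBayes and probe sets including unnamed ones. The code was tested on simulated data. Some items are not reported here.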

Additional observations from a re-analysis of the deposited data

Results flagged for a closer look

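IGF1 was marked because its response differed between the lines by the test of the difference itself, at 3.5 log2 (limma adjusted p = 0.0428, with the replicate block 0.00581). Its value was 3.42 in replicate number 1 and 3.58 in replicate number 2. CD52 and EGR1 were marked because they were called in opposite directions in the lines, with differences of -3.16 and -2.87 log2 (limma adjusted p with the replicate block 0.0158 and 0.0132). CD52 was called in opposite directions without any 1 array, whereas EGR1 lost a line call without any of 4 arrays (MV4-11 treated replicate 1 and control replicate 2, MOLM-13 control replicate 1 and treated replicate 2).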

How the results depend on the processing

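The replicate numbers pair the arrays, and the replicate block raised most counts at a limma adjusted p under 0.05. With the replicate block (and with a block within each line) 85 (78) genes passed for the difference instead of 1, 1020 (954) for MV4-11 instead of 150, 72 (68) for MOLM-13 instead of 23, 837 (739) for the mean response instead of 126 and 1502 (1478) for the control difference instead of 459. Among MHC class II genes 6 (5) differences passed instead of 0, and among monocyte and macrophage genes 4 (4). In this balanced design the block cannot change a fitted difference, only its error. Fits with 1 array left out had no block and are not balanced, so the shift shared by same-numbered arrays enters their differences.

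With all 28 arrays in 1 fit, 48, 385, 50, 291 and 705 genes passed in the same order. The difference passed for 2 genes after another quantile normalization and for 0 with unnamed probe sets included, where 613 probe sets were called at unadjusted p. Testing only genes above the median signal, which leaves fewer genes to test, gave 13 adjusted calls in MOLM-13, 83 for the mean response and 276 for the control difference, and 255, 427 and 75 called genes for the difference, MV4-11 and MOLM-13, with 45 called higher in both lines. With its own 4 arrays alone, MOLM-13 had 7 adjusted calls. The cause of the changes with 28 arrays and with another normalization was not tested.

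Leaving out 1 array at a time gave 0 to 4 adjusted and 440 to 1154 called differences, the most without MOLM-13 treated replicate 1. It gave 5 (without MV4-11 control replicate 1) to 199 adjusted calls in MV4-11 and 5 to 22 in MOLM-13, 164 to 902 called genes in MOLM-13, and 42 to 139 adjusted calls for the mean response and 175 to 540 for the control difference. The median difference ranged from 1.54 to 1.72 for MHC class II genes, from -0.84 to -0.35 for DNA replication genes, from -1.12 to -0.43 for mitosis genes, from -0.41 to -0.3 for cholesterol and fatty acid synthesis genes and from -0.32 to -0.01 for monocyte and macrophage genes, where 0 to 1 differences passed. It ranged from -0.23 to -0.02 for MLL fusion targets, -0.6 to -0.26 for immediate early genes, -0.5 to -0.27 for p53 targets, -0.68 to -0.34 for ATF4 genes and 0.08 to 0.25 for interferon-stimulated genes.

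Among named genes, the sign of the difference turned under some alternatives for 9 genes, none with a called difference. Leaving out 1 array gave ranges of -0.25 to 0.2 for SORL1, -0.12 to 1.64 for MGAT4A, -0.32 to 0.71 for CYBB, -0.62 to 0.75 for FPR1, -0.28 to 0.46 for ARHGAP31, -0.73 to 0.83 for MSMO1, -0.26 to 0.42 for CD86, -0.34 to 0.2 for ITGAM and -0.1 to 0.07 for MYC. After another quantile normalization SORL1 stood at 0.04 and MYC at 0.04. The value of each replicate number alone, an alternative chosen after seeing the data, was 0.05 for SORL1 and -0.12 for CD86 and 0.16 for ITGAM in number 2, and -0.37 for CYBB, -0.5 for FPR1, -0.55 for ARHGAP31 and -0.5 for MSMO1 in number 1. The median standard error of a difference was 0.44 log2 without the block, and the smallest difference passing with the block was 1.53 log2 in size. Smaller differences may have gone undetected with 2 arrays per group.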

Other observations

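The same genes were read in the other MLL-r and non-MLL-r lines as values with no test (n = 2 per group). In NOMO-1, treated minus control ran from -0.96 (PCBP3) to 5.29 (GFRA2) over the 12 genes with the largest positive difference and from -0.63 (SLC38A1) to 4.53 (OLR1) over the 12 with the largest negative difference among those passing with the block. IGF1 stood at 2.06 there, GASK1B at 3.23, CD9 at 3.04, SGK1 at 3, NCAM2 at -0.17 and RHBDL3 at -0.12. In THP-1 the ranges were -0.38 (FILIP1L) to 1.38 (NCAM2) and -0.72 (EGR1) to 2.16 (SGK1), with 0.12 for IGF1 and 1.63 for OLR1. In HL-60, the 12 genes with the largest positive difference had values from -0.79 (FILIP1L) to 0.43 (PCBP3). ALOX12 and IL2RA, which fell in MV4-11, had values between -0.16 and 0.28 in the 5 other lines.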
